A study of Mus musculus with 6 samples.

Results

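The voltage-gated and potassium ion channel genes were read in RNA sequencing of the lateral amygdala, the part of the amygdala that receives sensory input in fear learning. They were taken as all genes whose symbol begins with Kcn, Cacn, or Scn or Hcn followed by a digit, without the antisense transcripts of such genes. The rule gave 139 genes of the 50383 gene IDs in each table. Of these, 101 encode pore-forming subunits and 37 auxiliary subunits or regulators, and the remaining 1 is Kcnq1ot1, a noncoding RNA transcribed antisense to Kcnq1. Levels were deposited as FPKM, fragments scaled to transcript length and to the mapped fragments of a library, so levels of different genes are on a scale per length.

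The mice were males of a 129xC57BL/6 hybrid strain, 2 to 3 months old, in 3 groups of 2 libraries each. The first group was injected with Baf53b siRNA, which is a small interfering RNA that targets Actl6b, 1 day after training. Actl6b encodes BAF53b, a subunit of the neuronal BAF nucleosome remodelling complex. The second group is labelled scrambled siRNA, a control RNA of shuffled sequence, and the third is labelled control. What the control mice received is not given in the sources used here, and the label of 4 mice for the tissue does not say whether a library is a pool of animals. Spread between these libraries, which may be technical, is then all that the p-values take into account.

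Voltage-gated sodium channels carry the upstroke of the action potential, voltage-gated calcium channels couple it to transmitter release and to gene activity, and potassium channels repolarise the membrane and set how readily a neuron fires again. Hyperpolarisation-activated HCN channels open at negative potentials and shape resting potential and synaptic summation. Auxiliary subunits carry no current of their own and set how many channels reach the membrane and how fast they open and close. In the amygdala these channels set the excitability of principal neurons and interneurons, and some potassium channels belong to microglia, astrocytes or vessels.

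The widths of the deposited confidence intervals imply between 6.43 M and 10.7 M fragments per library, and the median tested channel gene had between 400 and 660 fragments in a library. These estimates cover counting error only. Mitochondrial genes made up 15.0% to 29.5% of the FPKM sum and were higher in replicate 2 than in replicate 1 of each group. The targeted gene Actl6b stood at 42.8 and 39.6 FPKM with Baf53b siRNA, 43.8 and 43.9 FPKM with scrambled siRNA and 42.9 and 44.1 FPKM in control. The difference of -0.09 (log2) against scrambled siRNA had a 95% interval of -0.38 to 0.21 (limma adjusted p = 1). Lower Actl6b was thus not detectable at this spread, and group names here are those of the labels. Of markers of the labelled tissue, Slc17a7, the vesicular glutamate transporter of forebrain excitatory neurons, lay between 288 and 410.3 FPKM, and Rspo2, a marker of the basolateral amygdala, was low at 0.963 to 3.41 FPKM. Summed markers of neighbouring striatal neurons lay between 143 and 178 FPKM, and of choroid plexus between 1.94 and 10.1 FPKM, the highest in scrambled siRNA replicate 1. Those of neighbouring thalamic and habenular neurons lay between 34.2 and 40.9 FPKM. Of the 5 tested, 3 were lower and 2 higher by sign in Baf53b siRNA against control. Among them Prkcd was higher by 1.17 (limma adjusted p = 0.0477). It stood at 6.28 and 8.93 FPKM with Baf53b siRNA, 4.51 and 4.37 FPKM with scrambled siRNA and 3.14 and 2.46 FPKM in control. Whether the dissections differed was not tested.

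No channel gene was called different in any comparison. Of the 139 genes, 99 had a mean of at least 1 FPKM over the 6 libraries and were tested together with all other such genes, 14664 in all, by limma on log2(FPKM + 1) with Benjamini-Hochberg adjustment at 0.05. The tested genes comprise 73 pore-forming and 26 auxiliary subunits. The other 40 averaged less than 1 FPKM, and 3 of these, Kcnk16, Kcne1 and Kcnj1, were at 0 in every library. Kcng3 at a mean of 0.968 FPKM lay just outside the limit. Fold changes on the log2(FPKM + 1) scale understate the change of genes with low FPKM.

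In level the channel genes lay close to other protein-coding genes, and their genes were longer. The median tested channel gene stood at 10.4 FPKM, beside 10.9 FPKM over the 12533 protein-coding genes with at least 1 FPKM, and 50.5% of the channel genes reached 10 FPKM beside 52.7% of the protein-coding genes. Their median genomic span was 59.9 kb, beside 25.3 kb. A level of over 50 FPKM was reached by 11 channel genes. Abundant genes of the subfamilies are given first, since they show which channels the tissue holds.

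Sodium channel genes were led among pores by a gene of principal neurons. Scn2a, the alpha subunit of axons of principal neurons, stood at 57.7 and 61.0 FPKM with Baf53b siRNA, 54.7 and 63.6 FPKM with scrambled siRNA and 57.5 and 59.0 FPKM in control, and the groups overlapped. It was followed by Scn8a (22.5 FPKM on average), the alpha subunit of mature nodes and initial segments, Scn1a (11.1 FPKM), which in the mouse forebrain is best known from inhibitory interneurons, and Scn3a (10.4 FPKM), which is more abundant before birth. Among alpha subunits of peripheral nerve and muscle, Scn10a averaged 0.388 FPKM and Scn4a 0.00163 FPKM.

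Calcium channel genes were led by auxiliary subunits. Cacnb3, a cytoplasmic beta subunit that brings calcium channels to the membrane, stood at 90.6 and 67.3 FPKM with Baf53b siRNA, 94.9 and 72.2 FPKM with scrambled siRNA and 91.0 and 73.0 FPKM in control. In each group replicate 1 was above replicate 2, and the groups overlapped. Cacng3, a TARP that carries AMPA-type glutamate receptors to synapses despite its channel name, stood at 71.2 and 60.2 FPKM with Baf53b siRNA, 77.9 and 57.6 FPKM with scrambled siRNA and 73.0 and 56.3 FPKM in control. Cacna2d1, the alpha2delta subunit bound by gabapentin, stood at 51.2 and 52.3 FPKM with Baf53b siRNA, 49.5 and 54.3 FPKM with scrambled siRNA and 54.5 and 48.5 FPKM in control. Its 6 libraries lay within 1.13-fold of each other. Of the pores, Cacna1b, the N-type channel of nerve terminals, led with 20.9 and 18.2 FPKM with Baf53b siRNA, 24.0 and 19.4 FPKM with scrambled siRNA and 23.2 and 15.4 FPKM in control. The R-type gene Cacna1e averaged 19 FPKM, the P/Q-type gene Cacna1a 19 FPKM and the T-type gene Cacna1g 17.6 FPKM, and the spans of these libraries overlapped with that of Cacna1b.

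Among potassium channels the highest level was that of an accessory protein. Kcnab2, the beta subunit of Kv1 channels, stood at 92.1 and 74.7 FPKM with Baf53b siRNA, 87.8 and 85.3 FPKM with scrambled siRNA and 78.0 and 103 FPKM in control. The lowest value was in Baf53b siRNA replicate 2 and the highest in control replicate 2. Kcnip2 (71.8 FPKM) and Kcnip4 (51.5 FPKM), calcium-binding partners of Kv4 channels, followed it. Kcnf1, a silent subunit that passes current only together with Kv2 subunits, stood at 38.3 and 31.3 FPKM with Baf53b siRNA, 42.3 and 35.7 FPKM with scrambled siRNA and 41.6 and 33.8 FPKM in control. Kcnj4, a strong inward rectifier, stood at 41.7 and 28.8 FPKM with Baf53b siRNA, 43.0 and 32.1 FPKM with scrambled siRNA and 47.2 and 25.4 FPKM in control. Kcnh3, an EAG-family channel of the forebrain, stood at 41.4 and 30.3 FPKM with Baf53b siRNA, 43.4 and 30.4 FPKM with scrambled siRNA and 40.3 and 31.1 FPKM in control. For these 3 genes the groups overlapped.

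Leading genes of other subfamilies were less abundant. Kcnt1, the sodium-activated channel, stood at 21 and 25.8 FPKM with Baf53b siRNA, 27.6 and 19.3 FPKM with scrambled siRNA and 25.4 and 15.1 FPKM in control. Kcnc1, a fast-closing channel of fast-spiking interneurons, stood at 18.3 and 17.9 FPKM with Baf53b siRNA, 18.5 and 18.8 FPKM with scrambled siRNA and 22.5 and 18.1 FPKM in control. The Kcnc1 values lie close together, with control replicate 1 the highest. Kcna6, of the low-threshold Kv1 subfamily, stood at 18.8 and 15.5 FPKM with Baf53b siRNA, 21 and 18.2 FPKM with scrambled siRNA and 16.3 and 21 FPKM in control. Kcnk1, a background potassium channel of neurons and astrocytes, stood at 16.8 and 14.7 FPKM with Baf53b siRNA, 15.7 and 17.0 FPKM with scrambled siRNA and 14.8 and 17.5 FPKM in control. Hcn2 stood at 11.5 and 8.76 FPKM with Baf53b siRNA, 12.5 and 11.1 FPKM with scrambled siRNA and 11.0 and 11.7 FPKM in control, the lowest of these being Baf53b siRNA replicate 2.

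**Figure D1:**
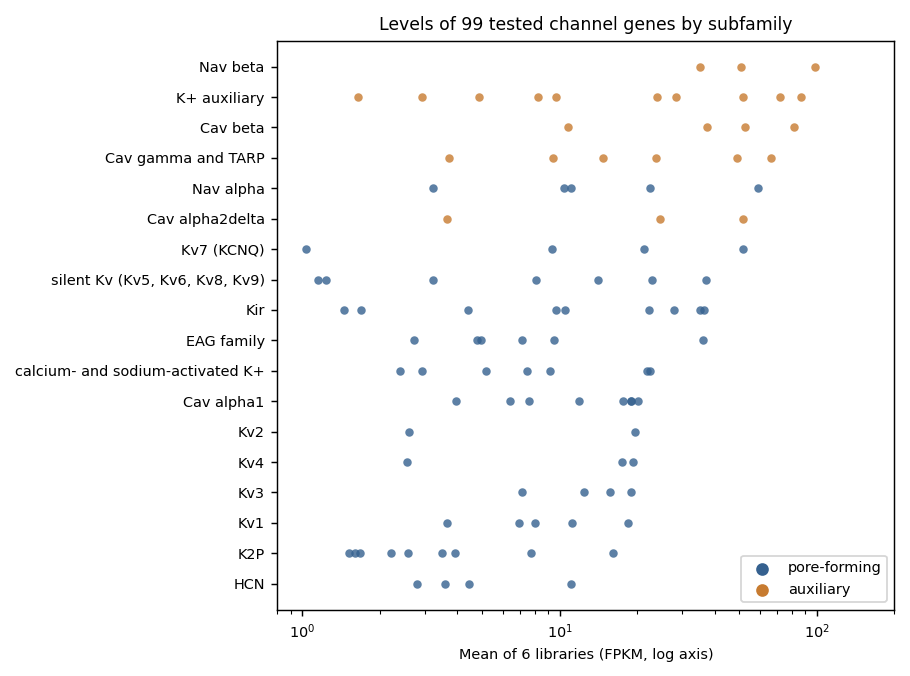
Mean level over the 6 libraries (FPKM, log axis) of the 99 tested channel genes, 1 point per gene, by subfamily, with pore-forming subunits in blue and auxiliary subunits in orange. The highest pore gene is Scn2a at 58.9 FPKM, and auxiliary genes reach higher levels, as with Kcnab2 at 86.8 FPKM.

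The range of the more abundant channel genes is given without a like count over all genes, which was not made. Median gaps between replicates, given below, were not smaller for the tested channel genes than over all genes. Of the 50 channel genes at 10 FPKM or more, 44 lay within 1.5-fold over the 6 libraries. The narrowest was Kcnj3, a subunit of G-protein-gated inward rectifiers, at 27.5 and 27.2 FPKM with Baf53b siRNA, 27.2 and 26.9 FPKM with scrambled siRNA and 29.2 and 28.5 FPKM in control. Only 2 spanned more than 2-fold. One was Cacnb4, a beta subunit, at 60.6 and 41.8 FPKM with Baf53b siRNA, 82.4 and 45.3 FPKM with scrambled siRNA and 61.5 and 24.3 FPKM in control. The other was Cacna1g, a T-type calcium channel of burst-firing neurons, at 20.1 and 18.5 FPKM with Baf53b siRNA, 24.2 and 14.2 FPKM with scrambled siRNA and 17.8 and 10.8 FPKM in control. For both, replicate 1 was above replicate 2 in every group.

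In Baf53b siRNA against scrambled siRNA, most channel genes lay slightly lower and none was called. Of the 14664 genes tested, 0.123% were called higher and 0% lower, and 0 of the 99 channel genes were called in either direction. At an unadjusted p under 0.05, 1 channel gene was higher and 0 lower, beside 2.67% and 0.361% of all genes. The median difference of the channel genes was -0.06 (log2), beside 0.00 over all genes tested, and 76 of 99 (76.8%) were lower by sign, beside 49% of all genes. Auxiliary subunits had 22 of 26 lower by sign and a median of -0.06, and pore-forming subunits 54 of 73 and -0.06. Neuron markers moved with them, since 19 of 19 were lower by sign (median -0.07). Markers of inhibitory neurons (7 of 10 lower, -0.04) and of oligodendrocytes (7 of 10, -0.07) lay lower too, and those of microglia did not (0 of 12, 0.58). With each library centred on the neuron markers the channel median became 0.01, with 46 of 99 (46.5%) lower, and that of all genes 0.07, with 28.7% lower. Such centring moves all genes of a library alike, so the channel median lay 0.06 below that of all genes both before and after it. The part of the neuron markers in the difference was not tested, and in bulk tissue fewer cells of a type and less RNA per cell cannot be told apart. Without scrambled siRNA replicate 1 the channel median was 0.02, with 46 of 98 (46.9%) lower, beside 0.07 and 33.9% over all genes. Without Baf53b siRNA replicate 2 it was -0.0026, with 51 of 99 (51.5%) lower, beside 0.04 and 39.7%.

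**Figure D2:**
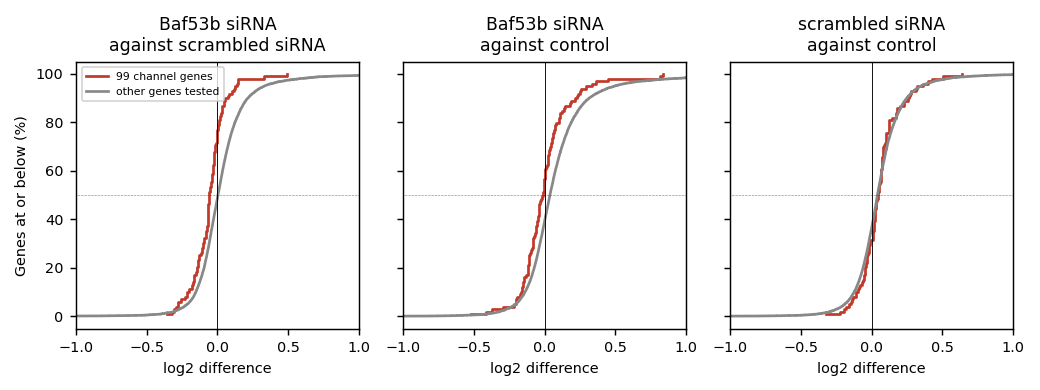
Cumulative share of genes (percent) at or below each log2 difference, for the 99 channel genes in red and the other genes tested in grey, in the 3 comparisons. The channel curve lies left of the grey curve in both comparisons of Baf53b siRNA, with medians of -0.06 beside 0.00 against scrambled siRNA (0.01 beside 0.07 when libraries are centred on neuron markers), and close to it for scrambled siRNA against control.

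Both Baf53b siRNA libraries lay below both scrambled siRNA libraries for 17 of 99 channel genes (17.2%), beside 9% of all genes, and above both for 6 (6.06%), beside 13.1%. The difference between these groups exceeded the gap between replicates in both groups for 13 of the 99 (13.1%), beside 14.4% of all genes. By subfamily, 15 of 18 medians were below 0. HCN genes (4 of 4 lower by sign, median -0.14), Kv1 genes (4 of 5, -0.14), sodium channel beta genes (3 of 3, -0.11), calcium channel beta genes (4 of 4, -0.10), K2P genes (8 of 9, -0.09) and Kv4 genes (3 of 3, -0.08) had the lowest medians, and these 6 medians were below 0 under all 4 other scalings, though that of the calcium channel beta genes turned without scrambled siRNA replicate 1 (0.07) and without Baf53b siRNA replicate 2 (0.05). The median of potassium channel auxiliary genes (8 of 10, -0.03) turned to 0.03 when centred on neuron markers, that of inward rectifiers (6 of 9, -0.02) to 0.04, and that of EAG-family genes (5 of 6, -0.05) to 0.01. Those of Kv2 (to 0.02), Kv3 (to 0.01) and calcium- and sodium-activated potassium channel genes (to 0.04) turned too. The alpha2delta genes (1 of 3 lower, median 0.05), sodium channel alpha genes (2 of 5, 0.01) and calcium channel alpha1 genes (4 of 8, 0.0023) did not lie lower. The sodium channel alpha median was below 0 after rescaling without mitochondrial genes and after upper quartile scaling. The calcium channel alpha1 median was below 0 under both of these and after quantile normalization.

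All 4 HCN genes were tested, and Hcn2 averaged 11.1 FPKM while Hcn3 and Hcn4 were lower in level. Hcn3 stood at 2.55 and 1.84 FPKM with Baf53b siRNA, 4.38 and 2.09 FPKM with scrambled siRNA and 3.80 and 2.15 FPKM in control, a difference of -0.36 (SE 0.32, limma adjusted p = 1). Its groups overlapped and each held replicate 1 above replicate 2. Hcn4 stood at 4.07 and 3.14 FPKM with Baf53b siRNA, 4.4 and 3.27 FPKM with scrambled siRNA and 3.74 and 2.83 FPKM in control, and here the groups overlapped too.

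Kcnk2 and Cacna1i had the next largest downward differences. Kcnk2, a stretch- and lipid-gated background channel also known from astrocytes, stood at 7.17 and 6.71 FPKM with Baf53b siRNA, 10.2 and 7.80 FPKM with scrambled siRNA and 7.35 and 7.09 FPKM in control. Both Baf53b siRNA libraries lay below both scrambled siRNA libraries, and the scrambled siRNA libraries differed from each other by more than the other groups did. The difference of -0.33 (SE 0.16, 95% interval -0.71 to 0.06) did not pass (limma adjusted p = 1), and against control it was -0.05. Cacna1i, a T-type calcium channel of bursting neurons, stood at 3.45 and 3.64 FPKM with Baf53b siRNA, 5.45 and 3.89 FPKM with scrambled siRNA and 3.82 and 3.52 FPKM in control. The highest was scrambled siRNA replicate 1, whose interval of 3.47 to 7.43 FPKM on 30.2 fragments overlapped those of the other libraries. The difference of Cacna1i against scrambled siRNA was -0.31 (SE 0.18, limma adjusted p = 1), and against control -0.04. Kcnk2 shares exon bases with an antisense transcript, and since the strand setting of the counting is not given in the sources used here, reads of both strands cannot be told apart. In all, 41 of the 139 channel genes share exon bases with another annotated gene, 34 of them tested, and for 3 (Cacng8, Kcnab2 and Kcnk4) the other gene is on the same strand. Cacna1a, Cacnb4, Hcn3, Kcna6, Kcnh3, Kcnip4, Kcnj3, Kcnj13, Kcnk1 and Kcnq1 share them with a gene on the opposite strand.

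**Figure D3:**
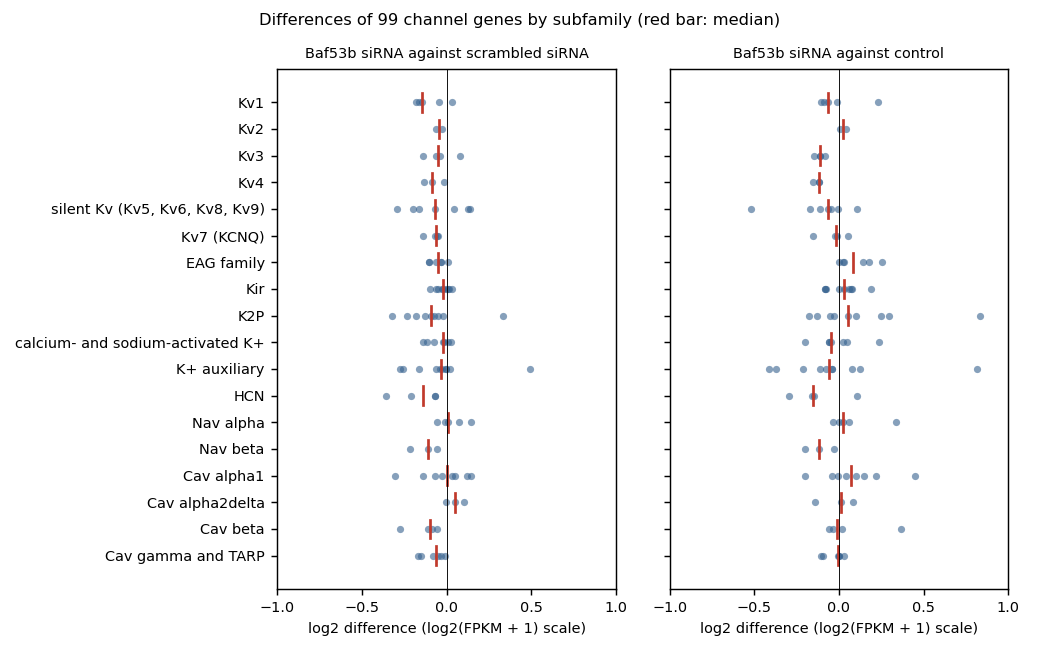
Log2 difference of each of the 99 tested channel genes by subfamily, for Baf53b siRNA against scrambled siRNA and against control, with the median as a red bar. Against scrambled siRNA 15 of 18 medians lie below 0 (9 of 18 when libraries are centred on neuron markers), and against control 11 of 18.

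Against the control libraries, the Baf53b siRNA libraries stood highest relative to control for Kcnk6 and Kcne1l, neither of which passed the adjusted threshold. This comparison shares its Baf53b siRNA libraries with the one above. Of all genes tested, 1.23% were called higher and 0% lower, and 0 of the 99 channel genes were called. At an unadjusted p under 0.05, 2 channel genes were higher and 1 lower, beside 4.75% and 0.273% of all genes. The channel median was -0.01, beside 0.04 over all genes, and 56 of 99 (56.6%) were lower by sign, beside 39.3%. After quantile normalization the median was -0.09, with 74 of 99 (74.7%) lower, beside -0.04 and 59.5% over all genes. Without control replicate 1 it was 0.08, with 37 of 98 (37.8%) lower, beside 0.10 and 33.2%, and without control replicate 2 it was -0.11, with 78 of 100 (78%) lower, beside -0.01 and 53.2%. Both libraries lay below both control libraries for 15 channel genes (15.2%), beside 7.11% of all genes, and above both for 4 (4.04%), beside 16.7%.

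Kcnk6 (ENSMUSG00000046410.10, mm10 chromosome 7, 29221926 to 29232515, minus strand) encodes a background potassium channel of the TWIK type, known from macrophages in the mouse as a route of potassium efflux. It stood at 2.34 and 2.09 FPKM with Baf53b siRNA, 1.57 and 1.53 FPKM with scrambled siRNA and 0.807 and 0.790 FPKM in control. The 3 groups did not overlap and stood in the order Baf53b siRNA, scrambled siRNA, control, with each replicate pair close together. Group means were 2.21 ± 0.175 FPKM, 1.55 ± 0.0339 FPKM and 0.799 ± 0.0122 FPKM in that order (SD, n = 2 each). The difference from control was 0.84 (SE 0.16, 95% interval 0.46 to 1.21, limma adjusted p = 0.0783). Against scrambled siRNA it was 0.33 (SE 0.16, limma adjusted p = 1). The gene rested on between 48.6 and 142 fragments per library.

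Kcne1l (ENSMUSG00000090122.3, mm10 chromosome X, 142304752 to 142306294, minus strand) encodes a small membrane protein that modulates Kv7 potassium channels. It stood at 3.84 and 4.46 FPKM with Baf53b siRNA, 2.77 and 2.53 FPKM with scrambled siRNA and 1.87 and 1.97 FPKM in control. Here too the 3 groups did not overlap, in the same order. The difference from control was 0.82 (SE 0.16, 95% interval 0.45 to 1.19, limma adjusted p = 0.0825), and from scrambled siRNA 0.49 (SE 0.16, limma adjusted p = 0.929). The non-overlapping order Baf53b siRNA above scrambled siRNA above control was held by these 2 of the 99 tested channel genes. It was held by 505 of all genes tested (3.44%), these 2 included.

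The opposite order was held by Kcnd3 and Kcng2, 2 of the 99 tested channel genes, beside 60 of all genes tested (0.409%). Kcnd3 (ENSMUSG00000040896.16, mm10 chromosome 3, 105452330 to 105674002, plus strand), a Kv4 channel of the A-type current that delays firing, stood at 18.8 and 17.6 FPKM with Baf53b siRNA, 19.4 and 19.3 FPKM with scrambled siRNA and 20.6 and 20.04 FPKM in control. The steps between groups were small, and its difference from control was -0.15 (SE 0.13, limma adjusted p = 1). Kcng2 (ENSMUSG00000059852.7, mm10 chromosome 18, 80294546 to 80364254, minus strand), a silent subunit, stood at 0.842 and 0.902 FPKM with Baf53b siRNA, 0.954 and 1.37 FPKM with scrambled siRNA and 1.83 and 1.56 FPKM in control. Its difference from control was -0.52 (SE 0.18, limma adjusted p = 0.609), but no library held more than 16 fragments for it.

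Kcnmb4 and Kcnab3, both auxiliary, also lay below control without overlap. Kcnmb4 (ENSMUSG00000054934.10, mm10 chromosome 10, 116417861 to 116473878, minus strand), the neuronal beta4 subunit that slows large-conductance calcium-activated channels, stood at 7.97 and 6.01 FPKM with Baf53b siRNA, 8.75 and 8.24 FPKM with scrambled siRNA and 8.43 and 10.1 FPKM in control. The difference from control was -0.37 (SE 0.18, limma adjusted p = 1), and from scrambled siRNA -0.26. Kcnab3, a beta subunit of Kv1 channels, stood at 4.51 and 3.41 FPKM with Baf53b siRNA, 6.16 and 3.99 FPKM with scrambled siRNA and 6.04 and 5.14 FPKM in control, a difference from control of -0.42 (SE 0.22, limma adjusted p = 1). Kcnmb4 shares exon bases with 2 antisense genes, Kcnd3 and Kcnab3 with 1 each, and Kcng2 with an unclassified transcript on the opposite strand.

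Bases before the RefSeq start are given for 3 of these genes. Kcne1l lay in the order Baf53b siRNA, scrambled siRNA, control, Kcnd3 in the reverse order, and Kcnmb4 lay lowest in Baf53b siRNA. Whether these bases bear on those levels was not tested. The RefSeq promoters (GRCm38.p6) cover chrX:142306199-142306448 on the minus strand, chr3:105451640-105451889 on the plus strand and chr10:116473524-116473773 on the minus strand. They are the 250 bases before each start as RefSeq gives it, which is not the start in the deposited tables. By the deposited spans given above, the Kcnmb4 bases lie inside the gene and the Kcne1l bases partly so. The Kcnd3 bases end before the deposited start. All are read 5′ to 3′ on the strand of the gene, with CG dinucleotides in capitals.
Kcne1l: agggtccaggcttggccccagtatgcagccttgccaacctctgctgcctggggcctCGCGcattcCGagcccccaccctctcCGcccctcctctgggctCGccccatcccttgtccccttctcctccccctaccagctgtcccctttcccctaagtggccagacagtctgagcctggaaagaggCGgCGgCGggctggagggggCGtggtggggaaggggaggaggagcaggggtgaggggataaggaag
Kcnd3: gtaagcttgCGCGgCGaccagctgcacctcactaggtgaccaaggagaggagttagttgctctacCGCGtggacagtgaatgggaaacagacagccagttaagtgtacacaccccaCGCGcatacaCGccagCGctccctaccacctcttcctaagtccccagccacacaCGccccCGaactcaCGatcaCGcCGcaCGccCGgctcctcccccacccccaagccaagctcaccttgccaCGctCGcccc
Kcnmb4: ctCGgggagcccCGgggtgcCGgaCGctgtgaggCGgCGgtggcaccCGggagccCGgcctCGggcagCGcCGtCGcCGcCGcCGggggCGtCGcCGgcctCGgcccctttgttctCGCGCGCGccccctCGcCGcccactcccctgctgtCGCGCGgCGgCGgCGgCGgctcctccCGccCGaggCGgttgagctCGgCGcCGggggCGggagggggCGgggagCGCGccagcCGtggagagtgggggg
The Kcne1l bases hold 9 CG dinucleotides (59.7% of all promoters of that length hold fewer), Kcnd3 18 (78.3%) and Kcnmb4 43 (99.3%). The median was 8 over the 138 promoters of the 102 channel genes with an entry, and 6 over all 32851 promoters. Searched on both strands, a PU.1 site written GAGGAAGT was in 2.44% of all promoters and a TATA box written TATAAA in 12.4%. Of the 138 channel gene promoters, 0 held the PU.1 site and 5 (3.62%) the TATA box. Neither stood in the 3 stretches printed, which says nothing of the factors.

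Scn7a, Cacna1g and Cacnb4 also averaged above control. Scn7a, a sodium-level sensor of glia and neurons, stood at 3.98 and 3.26 FPKM with Baf53b siRNA, 3.65 and 3.11 FPKM with scrambled siRNA and 2.70 and 2.60 FPKM in control. Both Baf53b siRNA libraries lay above both control libraries, with a difference of 0.34 (SE 0.16, limma adjusted p = 1). Cacna1g, whose values are given above, differed by 0.45 (SE 0.29, limma adjusted p = 1), and Cacnb4 by 0.37 (SE 0.46, limma adjusted p = 1). By subfamily, against control the Kv4 (3 of 3 lower, median -0.12), Kv3 (4 of 4, -0.11), sodium channel beta (3 of 3, -0.12) and HCN (3 of 4, -0.16) medians lay lowest and were below 0 under the other 4 scalings, while the EAG family stood above 0 (0 of 6 lower, 0.08) under each of them. Without control replicate 1 the Kv3 median turned to 0.04, and without control replicate 2 the EAG median turned to -0.11.

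**Figure D4:**
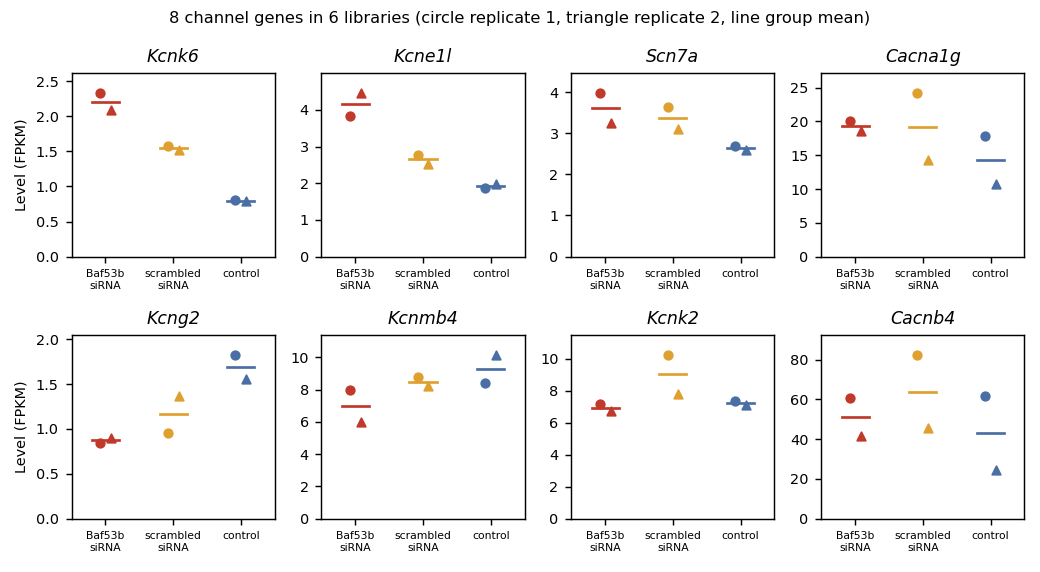
Level in FPKM of 8 channel genes in the 6 libraries, labelled Baf53b siRNA, scrambled siRNA and control from left to right, with a circle for replicate 1, a triangle for replicate 2 and a line for the group mean. Kcnk6 and Kcne1l step down from Baf53b siRNA to control with no overlap, Kcng2 steps the other way, and Cacna1g and Cacnb4 spread widely within groups.

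In scrambled siRNA against control, 0% of all 14664 genes were called in either direction, and 0 of 99 channel genes. At an unadjusted p under 0.05, 1 channel gene was higher and 0 lower, beside 2.03% and 0.184% of all genes. The channel median was 0.05, beside 0.04 over all genes, and 31 of 99 (31.3%) were lower by sign, beside 36.4%. That direction turned under quantile normalization (-0.0089, with 55 of 99 or 55.6% lower), rescaling without mitochondrial genes (-0.01) and centring on neuron markers (-0.02). It also turned without control replicate 2 (-0.05) and without scrambled siRNA replicate 1 (-0.02). The median of all genes turned under each of these too, to between -0.03 and -0.01. Both scrambled siRNA libraries lay above both control libraries for 10 channel genes (10.1%), beside 12.7% of all genes, and below both for 7 (7.07%), beside 5.57%. Kcnk6 differed by 0.50 (SE 0.16, limma adjusted p = 1) and Kcne1l by 0.32 (SE 0.16, limma adjusted p = 1). Kcnh5, an EAG-family channel, stood at 6.48 and 4.35 FPKM with scrambled siRNA, against 4.04 and 3.82 FPKM in control, a difference of 0.36 (SE 0.24, limma adjusted p = 1). Both scrambled siRNA libraries lay above both control libraries for Kcnh5 and for Kcnk2. Kcnk2 differed from control by 0.27, and Cacnb4, with a wide spread, by 0.64 (SE 0.46).

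Channels of glia and vessels were compared as a list of 13. Of these 8 were tested and 0 called in any comparison. Of all genes, 0.123% were called in Baf53b siRNA against scrambled siRNA, 1.23% in Baf53b siRNA against control and 0% in scrambled siRNA against control. Kcnk13, the THIK-1 channel of microglia, stood at 1.74 and 1.56 FPKM with Baf53b siRNA, 1.98 and 1.81 FPKM with scrambled siRNA and 1.76 and 1.20 FPKM in control. Kcna3, a channel of activated microglia and lymphocytes, stood at 4.17 and 3.67 FPKM with Baf53b siRNA, 4.09 and 3.54 FPKM with scrambled siRNA and 3.99 and 2.51 FPKM in control. Both Baf53b siRNA libraries lay below both scrambled siRNA libraries for Kcnk13, and Kcna3 overlapped between groups. Kcnj2, an inward rectifier of microglia and endothelium, stood at 1.47 and 1.78 FPKM with Baf53b siRNA, 1.46 and 1.88 FPKM with scrambled siRNA and 1.82 and 1.74 FPKM in control. Astrocyte channels were Kcnj10, the Kir4.1 channel that clears extracellular potassium, at 24.2 and 21.1 FPKM with Baf53b siRNA, 21.8 and 22.4 FPKM with scrambled siRNA and 20.6 and 22.9 FPKM in control, and its partner Kcnj16. Kcnj16 stood at 8.07 and 10.5 FPKM with Baf53b siRNA, 8.40 and 11.1 FPKM with scrambled siRNA and 8.08 and 11.9 FPKM in control, and replicate 2 was higher in each group. The channels Kcnj8 and Kcnmb1 of vessel walls, Kcnj13 and Kcne2 of choroid plexus and Kcnn4 of microglia averaged less than 1 FPKM (0.628, 0.208, 0.0522, 0.105 and 0.272 FPKM in that order).

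Of 5 channels that mark fast-spiking interneurons or striatal neurons, 4 were tested and 0 called, where at most 1.23% of all genes were called in a comparison. Kcnc2, a partner of Kcnc1, stood at 11.7 and 11.9 FPKM with Baf53b siRNA, 12.1 and 12.6 FPKM with scrambled siRNA and 15.2 and 10.9 FPKM in control. Kcns3, a silent subunit of such interneurons, stood at 1.23 and 1.16 FPKM with Baf53b siRNA, 1.00 and 0.981 FPKM with scrambled siRNA and 1.33 and 1.21 FPKM in control. For Kcns3 the Baf53b siRNA pair lay above the scrambled siRNA pair, and for Kcnc2 below it. Kcnh4, an EAG-family channel of striatum, stood at 2.75 and 2.69 FPKM with Baf53b siRNA, 3.48 and 2.23 FPKM with scrambled siRNA and 3.59 and 1.49 FPKM in control. Scn4b, a sodium channel beta subunit of striatal neurons, averaged 0.613 FPKM and was not tested.

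A list of 43 partner genes of these channels (anchors of the axon initial segment, FGF proteins of sodium channels, Kv1 and Kv4 complex proteins, related channels outside the symbol rule) gave 38 tested genes. Of these, 1 was called in Baf53b siRNA against control (1.23% of all genes were) and 0 in the other comparisons. Their median differences were -0.05 against scrambled siRNA and -0.03 against control, and 0.04 for scrambled siRNA against control. The called gene, named here after its values were seen, was Hvcn1 (ENSMUSG00000064267.13), the voltage-gated proton channel of microglia and other phagocytes, at 3.00 and 3.18 FPKM with Baf53b siRNA, 1.66 and 1.45 FPKM with scrambled siRNA and 0.820 and 0.858 FPKM in control. It was higher than control by 1.15 (SE 0.16, limma adjusted p = 0.0206), and against scrambled siRNA it differed by 0.68 (SE 0.16, limma adjusted p = 0.428). The call ended when any 1 of the 4 libraries of these groups was left out and with no filter on low values, and the adjusted p ranged from 0.0176 to 0.161 over the settings.

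Kcnk6, Kcne1l and Hvcn1, picked here by their own values, stood in the order of groups that summed microglial and endothelial markers also showed. Other channels of microglia did not all do so. Kcnk13 averaged 1.65 FPKM with Baf53b siRNA, 1.90 FPKM with scrambled siRNA and 1.48 FPKM in control, and Kcnj2 1.63, 1.67 and 1.78 FPKM in the same groups. Kcna3 averaged 3.92, 3.82 and 3.25 FPKM, with overlap between groups, and Kcnn4, which was not tested, 0.294, 0.381 and 0.141 FPKM. Of the 5 channels listed for microglia, Kcnk6 alone held the order without overlap. Summed over 12 microglial markers, the level was 1085 and 892 FPKM with Baf53b siRNA, 597 and 597 FPKM with scrambled siRNA and 344 and 341 FPKM in control. Relative to the control mean, the group means in the order Baf53b siRNA and scrambled siRNA were 2.88 and 1.74 for those markers, 2.77 and 1.94 for Kcnk6, 2.16 and 1.38 for Kcne1l, 3.68 and 1.86 for Hvcn1, and 0.965 and 1.02 for 19 summed neuron markers. Of the 12 markers, 9 were called higher in Baf53b siRNA against control by limma, beside 1.23% of all genes. None of the 12 was called in Baf53b siRNA against scrambled siRNA (lowest limma adjusted p = 0.126) or in scrambled siRNA against control (0.328), although all 12 were higher by sign in both. Summed endothelial markers held the same order without overlap. They stood at 74.0 and 87.6 FPKM with Baf53b siRNA, 73.6 and 70.7 FPKM with scrambled siRNA and 64.6 and 55.8 FPKM in control. Of these 8 markers, 6 were higher by sign in Baf53b siRNA against scrambled siRNA, 7 against control and 5 in scrambled siRNA against control, and 0 were called. The part of microglia or vessels in the channel values was not tested.

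**Figure D5:**
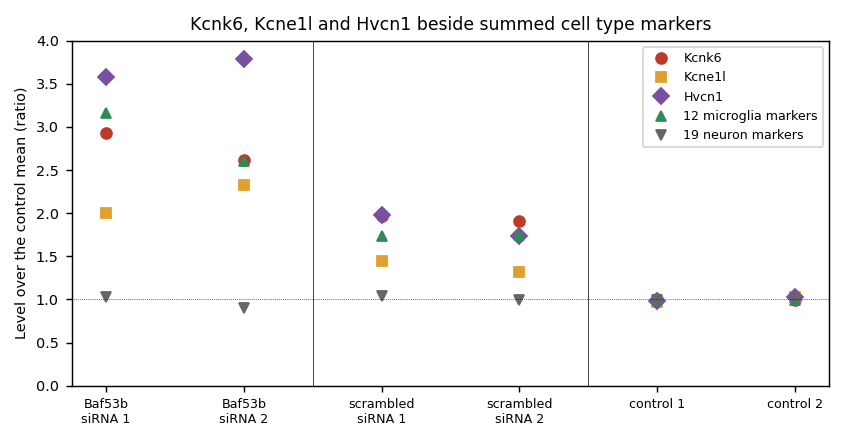
Level of Kcnk6, Kcne1l and Hvcn1 and the summed FPKM of 12 microglial and 19 neuron markers in each library, divided by the mean of the 2 control libraries. The microglial sum, Kcnk6, Kcne1l and Hvcn1 each step down by group from Baf53b siRNA to control, while the neuron sum stays near 1. Within Baf53b siRNA, replicate 1 is the higher for the microglial sum and Kcnk6, and replicate 2 for Kcne1l and Hvcn1. The 3 genes were picked by their values, and Kcnk13 and Kcnj2, not drawn, average in other orders. Summed endothelial markers, not drawn, hold the same order as the 3 genes.

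Within each group, replicate 1 was above replicate 2 for most channel genes. This held for 69 of 99 channel genes (69.7%) in Baf53b siRNA, 70 (70.7%) in scrambled siRNA and 76 (76.8%) in control, beside 60.3%, 68.1% and 64.5% of all genes. Replicate 1 was higher in all 3 groups for 54 of 99 channel genes (54.5%), beside 37.1% of all genes. The median absolute gap was 0.20 in Baf53b siRNA, 0.21 in scrambled siRNA and 0.24 in control (log2) per channel gene, beside 0.18, 0.21 and 0.22 over all genes. The median level of the channel genes in a library was 3.52 and 3.42 in Baf53b siRNA, 3.56 and 3.52 in scrambled siRNA and 3.49 and 3.47 in control (log2). Summed over all 139 channel genes, FPKM came to 1885 and 1658 in Baf53b siRNA, 1975 and 1741 in scrambled siRNA and 1913 and 1673 in control. As a share of FPKM outside the mitochondrial genes, the channels took 0.368% and 0.339% in Baf53b siRNA, 0.381% and 0.370% in scrambled siRNA and 0.387% and 0.369% in control.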

How the data were processed

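RNA from lateral amygdala was sequenced in 6 libraries, 2 per group. Stranded libraries were made from RNA caught on oligo-dT beads, per the labels' protocols. The tools were Cufflinks 2.2.1, TopHat2 2.1.1 and bcl2fastq 2.19.1.403 and the build was mm10, per the submitters' processing notes. The authors deposited FPKM per gene with a confidence interval, per the file headers. Sources used here do not give the annotation or the strand setting.

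Rows of a gene ID were summed, small RNA types by GENCODE M21 (353 genes) and 4 genes with a failed estimate were left out, and genes with a mean of at least 1 FPKM were kept. Values were taken as log2(FPKM + 1). In limma 3.58.1 (R 4.3.3), 1 mean per group was fitted over the 6 libraries together (trend, 3 residual degrees of freedom, two-sided, Benjamini-Hochberg over all 14664 genes), tested on simulated data. Fragments were estimated from the interval, its half-width taken as 2 SE. The named genes are the highest member of each subfamily, members with the smallest unadjusted p among those differing by at least 0.3 per comparison and direction, and the glial, vascular, fast-spiking and striatal lists; some of them are not reported here. The scale alternatives, filters, pseudocount, robust fit, fit of the compared groups alone, replicate block and leave-one-out fits were 17 settings per comparison. Members and lists were chosen with earlier results of these data known. Promoters came from RefSeq.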

Additional observations from a re-analysis of the deposited data

How the results depend on the processing

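No channel gene was called in any of the 17 settings of any comparison. The 117 named differences (Hvcn1 included) kept their sign in every setting in 38 cases. Against scrambled siRNA the median of the channel genes (-0.06) was 0.0054 when centred on neuron markers, and leaving out 1 library gave -0.118 to 0.0178. Against control the median (-0.01) was -0.0929 after quantile normalization and -0.0864 after rescaling without mitochondrial genes, and leaving out 1 library gave -0.113 to 0.0799. For scrambled siRNA against control the median (0.05) was -0.0089 after quantile normalization, -0.0117 after rescaling without mitochondrial genes and -0.0222 when centred on neuron markers, and leaving out 1 library gave -0.0483 to 0.144. All genes shifted with them: the channel median minus that of all genes stayed below 0 in all settings against scrambled siRNA (-0.08 to -0.04) and against control (-0.10 to -0.02). The cause was not tested.

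For Kcnk6 and Kcne1l against control, adjusted p ranged from 0.0652 to 0.506 and from 0.0765 to 0.557 over 16 settings each (neither was tested at a mean of at least 5 FPKM), so neither passed. Over all genes, calls against scrambled siRNA ranged from 0 with no filter to 30 with a robust fit, beside 18. Those against control ranged from 34 without Baf53b siRNA replicate 1 to 188, beside 181, and those of scrambled siRNA against control from 0 to 7, beside 0.

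The replicate numbers do not pair the samples by the labels, and the gaps between replicates correlated across the 14664 genes, which are not independent, by 0.183 between Baf53b siRNA and control, 0.359 between Baf53b siRNA and scrambled siRNA and 0.39 between scrambled siRNA and control. With the replicate block, 0 channel genes were called in each comparison, and the counts over all genes were 13 against scrambled siRNA, 188 against control and 0 for scrambled siRNA against control. Depth limits low genes most: Kcng2 rested on 5.5 to 16 fragments per library.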

Other observations

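Some members are known from other organs. Kcnu1, the Slo3 potassium channel of sperm in the mouse, stood at 1.99 and 3.65 FPKM with Baf53b siRNA, 2.38 and 2.96 FPKM with scrambled siRNA and 3.45 and 3.12 FPKM in control, on average above Hcn3. Both scrambled siRNA libraries lay below both control libraries, and the Baf53b siRNA libraries overlapped both groups. Kcnq1ot1, the noncoding RNA that silences its imprinted neighbours, stood at 0.103 and 0.251 FPKM with Baf53b siRNA, 0.122 and 0.179 FPKM with scrambled siRNA and 0.163 and 0.103 FPKM in control, and Kcnq1 averaged 0.0703 FPKM.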
